A study of Mus musculus with 6 samples.

Results

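Interferon-stimulated genes are switched on when a cell senses interferon, and most of their products restrict viruses or other pathogens. A set of 39 of them was chosen by symbol, with earlier results of these data known. Among them are sensors of viral RNA, transcription factors, the ISG15 system, antiviral effectors and immunity-related GTPases. Of the 39, 38 had a row among the 22369 genes of the deposited RNA-seq table, and Ifi27 had none under that symbol. Interferons of type I bind the receptor subunits Ifnar1 and Ifnar2, and the kinases Jak1 and Tyk2 then activate a complex that includes Stat2 and Irf9 and binds the interferon-stimulated response element (ISRE) of target promoters. Interferon gamma uses Ifngr1, Ifngr2, Jak1 and Jak2, and acts on promoters through the gamma-activated site. Fibroblasts carry both receptors, make interferon beta when they sense viral RNA, and can also keep some of these genes on at a low level without added interferon.

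RNA-seq was performed in immortalized mouse embryo fibroblasts (iMEF) of 3 kinds, with 2 libraries each. Nrdc-/-WT iMEF are Nrdc-/- cells in which Nrdc was put back with a lentivirus, Nrdc-/- iMEF come from mice that lack the metalloendopeptidase nardilysin (Nrdc), and Nrdc+/+ iMEF come from wild-type mice. No Nrdc-/- iMEF infected with an empty virus are among the RNA-seq libraries, so an effect of infection and one of Nrdc cannot be told apart in Nrdc-/-WT iMEF. Likewise, Nrdc-/- and Nrdc+/+ iMEF were immortalized as separate lines, so a property of 1 line and the loss of Nrdc cannot be told apart. According to the methods, biological replicates of cells were used in all experiments, a few passages after infection. Whether these were separate cultures is not stated for the libraries of each line, so p-values measure the spread between these libraries. No interferon treatment of any library is mentioned in the labels. Levels are given in RPKM, a read count scaled by the exon length of the gene and by the depth of the library.

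Nrdc itself, listed as Nrd1 (ENSMUSG00000053510, chromosome 4 of mm9), was at 5.89 and 5.40 RPKM in Nrdc-/-WT cells, 1.53 and 1.51 RPKM in Nrdc-/-, and 27.9 and 28.9 RPKM in Nrdc+/+ iMEF. The order of the lines fitted their labels, but the level in Nrdc-/-WT iMEF stayed below that in Nrdc+/+ iMEF, with -2.28 on the log2 scale (standard error 0.09, adjusted p = 1.44e-07). By immunoblotting and immunocytochemistry, the paper reports similar Nrdc expression in Nrdc-/-WT and wild-type iMEF. The lower RNA level is therefore no measure of the amount of Nrdc protein. RPKM also uses the listed exon length for the lentiviral transcript, whose own length is not stated. The libraries held 16385565 to 19764315 reads over the listed genes. The summed level of 10 fibroblast markers was 5998 to 6027 RPKM in Nrdc-/-WT cells, 5295 to 5341 RPKM in Nrdc-/- and 3736 to 4164 RPKM in Nrdc+/+ iMEF, although Thy1 was at 0 to 0.51 RPKM. Some of these markers moved with the stimulated genes. Pdgfra averaged 54.3, 53.4 and 4.70 RPKM and Col3a1 averaged 270, 266 and 37.1 RPKM in the same order of lines. Others did not, with Ddr2 at 33.3, 64.3 and 55.1 RPKM and Vim at 2096, 1140 and 1163 RPKM on average. The endothelial marker Kdr had 1 read over the Nrdc-/-WT libraries and 0 over the Nrdc-/- libraries, against 232 and 187 reads in Nrdc+/+ iMEF. Of 12 leukocyte markers, Emr1, Tyrobp and Cd3e had 0 reads in all 6 libraries, and the 12 together were at 1.90 to 2.34, 4.47 and 2.57 to 2.95 RPKM in Nrdc-/-WT cells, Nrdc-/- and Nrdc+/+ iMEF. Of these, Lyz2 was at 0.5 and 0.327 RPKM in Nrdc-/-WT cells, 3.26 and 3.57 RPKM in Nrdc-/-, and 0 RPKM in Nrdc+/+ iMEF. Cd68 went the other way, with 1.05 and 0.767 RPKM in Nrdc-/-WT cells, 0.46 and 0.176 RPKM in Nrdc-/-, and 1.99 and 2.47 RPKM in Nrdc+/+ iMEF. The part of these marker differences in any result was not tested. Bulk RNA cannot tell fewer expressing cells from less RNA per cell.

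Taken as a group, interferon-stimulated genes were lowest in Nrdc+/+ iMEF and highest in Nrdc-/-WT iMEF. The 38 genes summed to 936 and 906 RPKM in Nrdc-/-WT cells, 554 and 588 RPKM in Nrdc-/-, and 186 and 156 RPKM in Nrdc+/+ iMEF. Without Ifitm2 and Ifitm3, the most abundant of them, these sums were 321 and 324, 188 and 181, and 53.4 and 49.3 RPKM in the same order of lines. The order of the lines was thus not set by those abundant genes alone. By mean level, 28 of the 38 genes were highest in Nrdc-/-WT, 8 in Nrdc-/- and 2 in Nrdc+/+ iMEF, while 30 were lowest in Nrdc+/+ iMEF. At or above 1 RPKM were 25 genes in Nrdc-/-WT, 23 in Nrdc-/- and 12 in Nrdc+/+ iMEF. These counts by mean level have no share over all genes beside them. Such shares are given below for the order of single libraries. They describe a set chosen with earlier results of these data known and are no independent evidence about it.

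In single libraries, 27 of the 38 genes were higher in both Nrdc-/- libraries than in both Nrdc+/+ libraries and 3 were lower, against 35.1% and 34.1% of the 17771 genes with a read. Both Nrdc-/-WT libraries lay above both Nrdc-/- libraries for 22 genes and below them for 8 (30.8% and 33.5% of genes with a read), and above both Nrdc+/+ libraries for 31 and below them for 3 (34.2% and 34.7%). All 4 Nrdc-/-WT and Nrdc-/- libraries exceeded both Nrdc+/+ libraries for 26 genes (68.4%), an order found in 24.7% of genes with a read. Ifit2 and Stat2 had all 4 of these libraries below both Nrdc+/+ libraries, an order of 26.4% of genes with a read. Both Nrdc-/- libraries exceeded the 4 others for 5 genes (Ifih1, Isg15, Parp14, Rtp4 and Usp18) and fell below them for Irf9 alone, against 20.3% and 16.5% of genes with a read. The stepwise order, with both Nrdc-/-WT libraries above both Nrdc-/- libraries and these above both Nrdc+/+ libraries, was held by 18 genes (47.4%), against 8.47% of genes with a read. The plot of levels by library shows this order gene by gene.

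**Figure D1:**
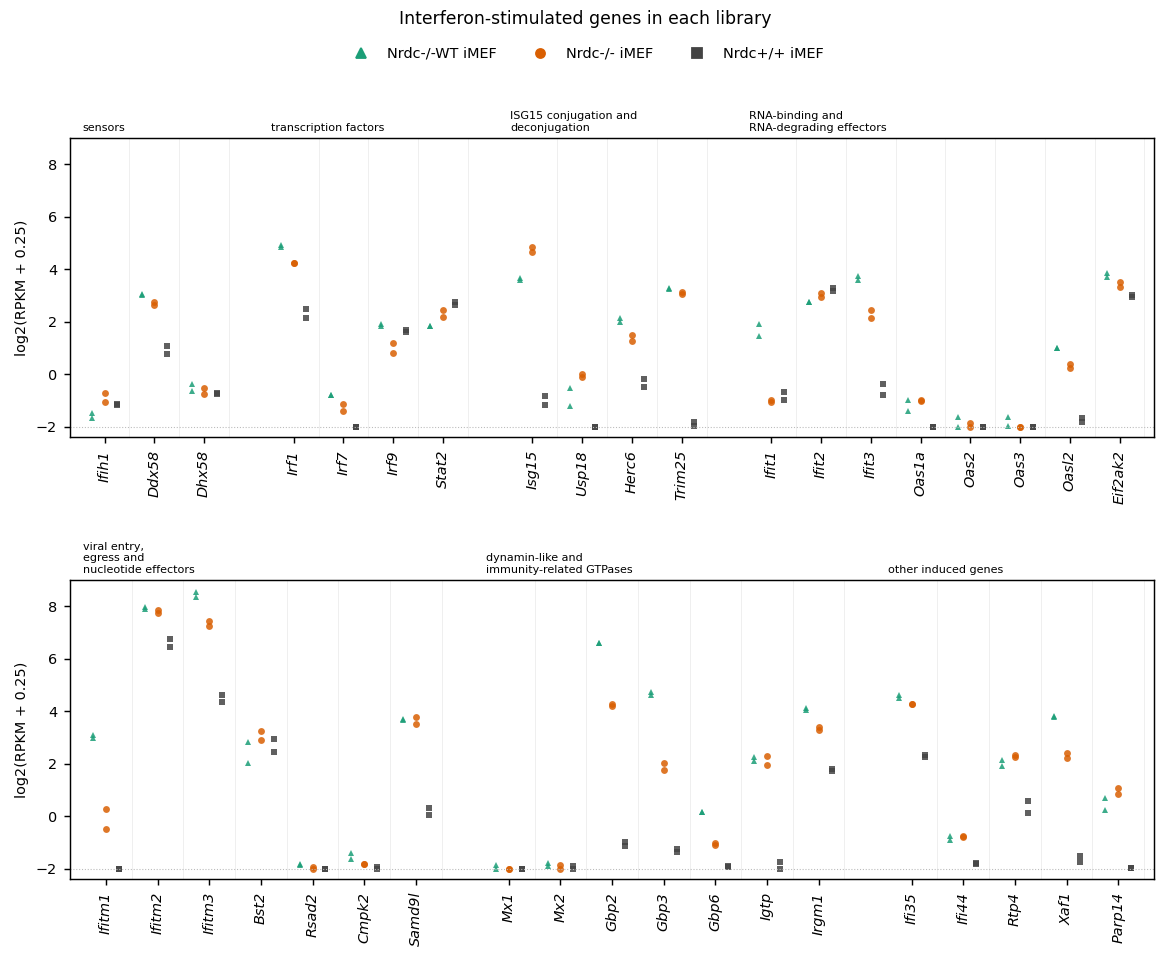
Level of each of the 38 interferon-stimulated genes in each library, on the log2(RPKM + 0.25) scale (vertical axis), grouped by role. Triangles are Nrdc-/-WT, circles Nrdc-/- and squares Nrdc+/+ iMEF, 1 symbol a library, and the dotted line marks 0 RPKM. For 26 genes the triangles and circles all lie above the squares.

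Differences between lines were tested by limma for the 11598 genes whose mean level reached 0.5 RPKM, on a log2(RPKM + 0.25) scale that understates changes of low genes. A call required both a 1.3-fold change and an adjusted p below 0.05. Of the 38 genes, 25 were tested and 13 were not. A gene could pass this filter through the lines where it was high, and 11 of the 25 had a mean under 0.5 RPKM in Nrdc+/+ iMEF, so the counts below describe the 25 and are no evidence about the whole group. In Nrdc-/- v.s. Nrdc+/+ iMEF, 20 of the 25 were called higher and 1 lower, where 32.0% and 30.2% of all genes tested were (62.1% in either direction), and their median log2 fold change was 1.95, or 1.99 with Ifitm1, which has no read in Nrdc+/+ iMEF, at its lower bound (0.01 over all genes tested). In Nrdc-/-WT v.s. Nrdc-/- iMEF, 12 were called higher and 3 lower (20.5% and 22.7% of all genes tested, 43.2% in either direction), with a median of 0.36 (-0.02 over all genes tested). In Nrdc-/-WT v.s. Nrdc+/+ iMEF, 21 were called higher and 2 lower (29.9% and 30.6% of all genes tested, 60.4% in either direction), with a median of 2.51 (-0.02 over all genes tested). The first and the second of these comparisons share the Nrdc-/- libraries.

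In order to separate genes that follow Nrdc from those that do not, each of the 25 was placed by its calls against Nrdc-/- iMEF. Of the 25, 3 followed Nrdc, that is, they were called on the same side of Nrdc-/- iMEF in both Nrdc-expressing lines (23.4% of all genes tested did). Isg15 and Parp14 were highest in Nrdc-/- iMEF, as were 12.3% of all genes tested, and Irf9 was lowest there, as were 11.0%. By contrast, 10 genes moved in opposite ways, lower in Nrdc+/+ and higher in Nrdc-/-WT than in Nrdc-/- iMEF, a pattern of 4.01% of all genes tested. They were Gbp2, Gbp3, Herc6, Ifit3, Ifitm1, Ifitm3, Irf1, Irgm1, Oasl2 and Xaf1. None of the 25 was called in the reverse order, falling stepwise to Nrdc-/-WT iMEF, against 3.17% of all genes tested, so that the stepwise patterns of both directions held 10 of the 25 genes and 7.18% of all genes tested. Another 8 genes (Ddx58, Eif2ak2, Ifi35, Ifitm2, Igtp, Rtp4, Samd9l and Trim25) were called in Nrdc-/- v.s. Nrdc+/+ iMEF alone, Ifit1 and Stat2 in Nrdc-/-WT v.s. Nrdc-/- iMEF alone, and Bst2 and Ifit2 in neither. A call in 1 comparison alone does not show that the other change is absent. Below, the first step is Nrdc-/- v.s. Nrdc+/+ iMEF and the second step is Nrdc-/-WT v.s. Nrdc-/- iMEF, and values given in pairs are log2 fold changes in that order.

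**Figure D2:**
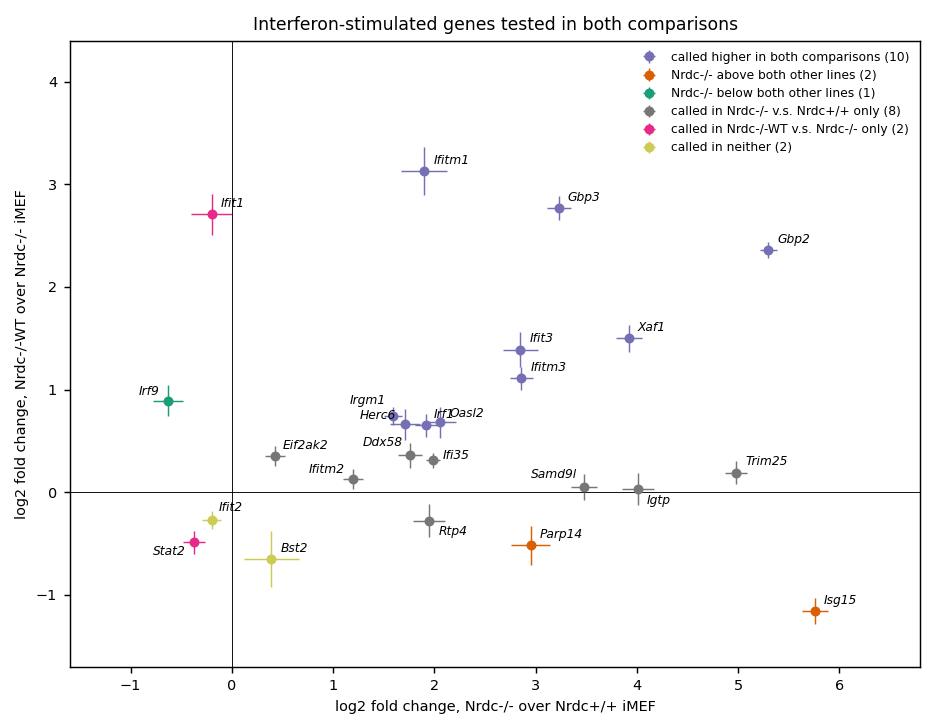
Log2 fold change of the 25 tested genes in Nrdc-/- over Nrdc+/+ iMEF (horizontal axis) and in Nrdc-/-WT over Nrdc-/- iMEF (vertical axis), with bars of 1 standard error and colours by pattern. Both axes use the Nrdc-/- libraries, so errors of these libraries enter both. The 10 genes of the stepwise pattern lie to the upper right, Isg15 lies lowest at 5.76 and -1.16, and Ifit1 lies near 0 on the horizontal axis at 2.71.

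The promoters of 5 genes are shown, since these genes moved differently or carry different motifs. Isg15 was highest in Nrdc-/- iMEF, Ifit1 was high in Nrdc-/-WT iMEF alone, Ifit3 and Gbp2 rose stepwise, and Irf1 also rose stepwise but holds another motif. The windows run from 250 bases before to 50 bases after the start of a transcript, 5′ to 3′ on the strand of the gene, from RefSeq (GRCm38.p6, a later build than the mm9 of the expression table). Capitals mark matches to the ISRE core (GAAA, any 2 bases, then GAAA, on either strand) or, in Irf1, to the gamma-activated site (TTCNNNGAA, which reads alike on both strands).
Isg15 promoter (chr4:156200769-156201068, minus strand): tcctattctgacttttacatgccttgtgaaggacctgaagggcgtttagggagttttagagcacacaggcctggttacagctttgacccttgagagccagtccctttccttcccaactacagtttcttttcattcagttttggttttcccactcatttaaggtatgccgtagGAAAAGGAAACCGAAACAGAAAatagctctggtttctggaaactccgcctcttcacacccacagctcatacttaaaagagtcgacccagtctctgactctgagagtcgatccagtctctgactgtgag
Ifit1 promoter (chr19:34640639-34640938, plus strand): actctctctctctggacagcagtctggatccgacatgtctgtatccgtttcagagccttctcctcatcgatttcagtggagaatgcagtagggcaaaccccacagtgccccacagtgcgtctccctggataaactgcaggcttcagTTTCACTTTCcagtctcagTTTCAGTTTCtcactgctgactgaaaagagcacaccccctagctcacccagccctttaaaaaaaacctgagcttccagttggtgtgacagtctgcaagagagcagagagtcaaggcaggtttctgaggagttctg
Ifit3 promoter (chr19:34583279-34583578, plus strand): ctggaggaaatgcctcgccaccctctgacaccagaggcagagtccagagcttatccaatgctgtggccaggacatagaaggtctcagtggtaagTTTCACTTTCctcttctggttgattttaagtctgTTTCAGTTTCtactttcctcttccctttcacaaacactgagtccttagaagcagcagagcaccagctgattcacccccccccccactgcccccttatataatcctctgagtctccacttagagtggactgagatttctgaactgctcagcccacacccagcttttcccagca
Gbp2 promoter (chr3:142620413-142620712, plus strand): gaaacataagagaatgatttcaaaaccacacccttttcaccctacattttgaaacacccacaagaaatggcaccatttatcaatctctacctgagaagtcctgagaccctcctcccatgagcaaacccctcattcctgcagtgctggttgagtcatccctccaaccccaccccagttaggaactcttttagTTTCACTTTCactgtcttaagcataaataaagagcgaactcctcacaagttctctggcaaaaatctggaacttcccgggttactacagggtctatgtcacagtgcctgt
Irf1 promoter (chr11:53769764-53770063, plus strand): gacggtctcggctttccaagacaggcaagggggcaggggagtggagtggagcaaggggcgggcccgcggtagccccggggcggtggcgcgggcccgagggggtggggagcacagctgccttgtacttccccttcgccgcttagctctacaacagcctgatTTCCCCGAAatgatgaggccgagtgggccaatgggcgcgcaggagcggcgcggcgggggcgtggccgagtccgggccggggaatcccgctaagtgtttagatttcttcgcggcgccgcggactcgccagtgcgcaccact
Isg15 has 3 overlapping ISRE cores that start at -78, -72 and -66 from the transcription start. Ifit1 has 2, at -104 and -85, and Ifit3 has 2, at -156 and -122. Gbp2 has 1 at -59, and this window of Irf1 has no ISRE core but a gamma-activated site at -90.

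Over all genes of the set, 30 of 39 matched a promoter in RefSeq, and 17 of the 30 (56.7%) held an ISRE core, as did 3.99% of 27025 genes and 3.44% of 32851 windows of the same length. The gamma-activated site was found in 8 of the 30 (26.7%), against 9.55% of genes and 8.30% of windows. Matches of both motifs can overlap each other. Motif content did not divide the patterns cleanly. Of the 10 genes that rose stepwise, 5 held an ISRE core (Gbp2, Gbp3, Ifit3, Ifitm3 and Irgm1) and 5 did not, and of the 7 genes called in Nrdc-/- v.s. Nrdc+/+ iMEF alone that had a promoter, 4 held one. A match is a description of letters, and binding of any factor was not measured here.

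**Figure D3:**
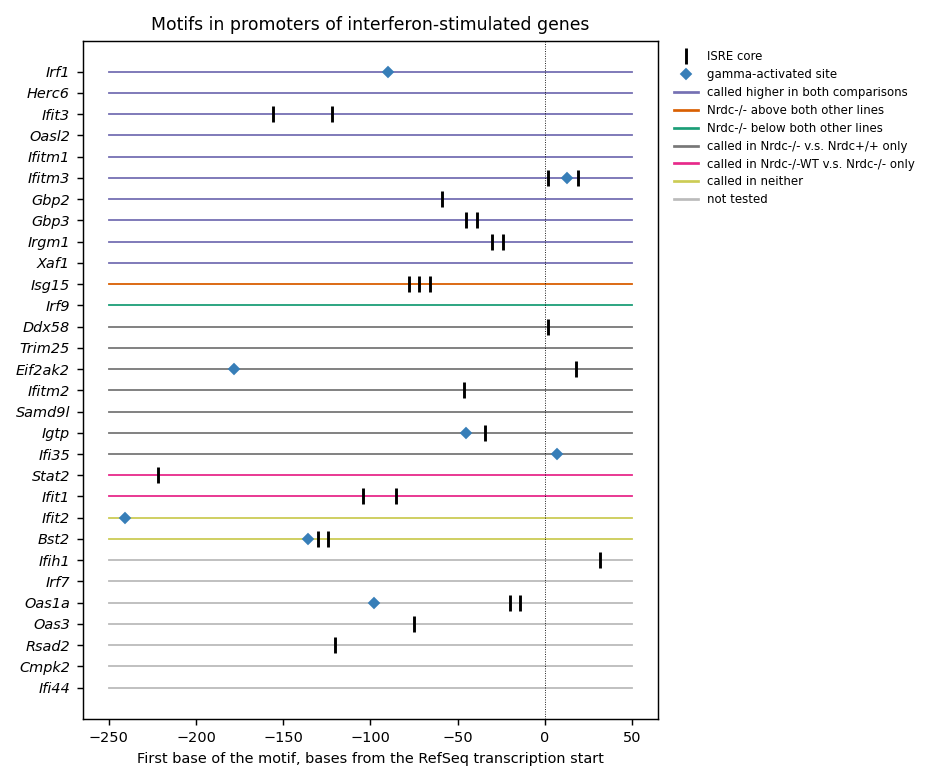
First base of each motif match in the promoters of 30 interferon-stimulated genes, in bases from the RefSeq transcription start (horizontal axis, 1 row a gene, matches of all listed promoters of a gene drawn on 1 line). Vertical bars are ISRE cores, diamonds gamma-activated sites, and line colours give the expression pattern. Of the 30 rows, 17 carry a bar and 8 a diamond.

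Among sensors of viral RNA, Ddx58 (RIG-I) was expressed and was lowest in Nrdc+/+ iMEF. It stood at 8.22 and 7.91 RPKM in Nrdc-/-WT cells, 6.02 and 6.47 RPKM in Nrdc-/-, and 1.48 and 1.85 RPKM in Nrdc+/+ iMEF, with no overlap between lines. Its log2 fold change was 1.76 in Nrdc-/- v.s. Nrdc+/+ iMEF (standard error 0.12, adjusted p = 2.75e-06), and the further difference of 0.36 in Nrdc-/-WT v.s. Nrdc-/- iMEF was below 1.3-fold. The other sensors were too low to be tested. Ifih1 (MDA5) was at 0.0656 to 0.361 RPKM and Dhx58 (LGP2), which modulates both sensors, at 0.351 to 0.530 RPKM. For Ifih1, both Nrdc-/- libraries lay above the 4 others.

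Transcription factors of the pathway did not move together. Irf1, which activates many interferon-stimulated genes, was at 28.4 and 30.6 RPKM in Nrdc-/-WT cells, 18.7 and 18.7 RPKM in Nrdc-/-, and 5.39 and 4.19 RPKM in Nrdc+/+ iMEF. Each step was beyond the spread between libraries, with log2 fold changes of 1.92 in Nrdc-/- v.s. Nrdc+/+ iMEF (standard error 0.11, adjusted p = 1.24e-06) and 0.65 in Nrdc-/-WT v.s. Nrdc-/- iMEF (standard error 0.11, adjusted p = 0.00131). Irf9, a DNA-binding partner of Stat2, was at 3.38 and 3.57 RPKM in Nrdc-/-WT cells, 2.06 and 1.51 RPKM in Nrdc-/-, and 2.78 and 2.97 RPKM in Nrdc+/+ iMEF. It was the only one of the 25 called lower in Nrdc-/- than in Nrdc+/+ iMEF (log2 fold change -0.63, adjusted p = 0.00428) and was higher again in Nrdc-/-WT iMEF (0.89, adjusted p = 0.00109). Stat2 had 3.32 and 3.32 RPKM in Nrdc-/-WT cells, 4.34 and 5.23 RPKM in Nrdc-/-, and 6.51 and 5.94 RPKM in Nrdc+/+ iMEF, an order opposite to that of Irf1. The fall of 0.49 on the log2 scale in Nrdc-/-WT v.s. Nrdc-/- iMEF was called (adjusted p = 0.00622), but not without the second Nrdc-/- library, when the difference was -0.36. Without that library or the second Nrdc+/+ library, Stat2 was also called lower in Nrdc-/- than in Nrdc+/+ iMEF (-0.49 and -0.43, against -0.37 with all libraries). Irf7, the factor that amplifies interferon production, had 40 reads over both Nrdc-/-WT libraries, 18 over both Nrdc-/- libraries and 0 in Nrdc+/+ iMEF. With both Nrdc+/+ libraries together set to a floor of 3 reads, for counting error only, Irf7 was at least 6.94-fold higher in Nrdc-/- and at least 13.7-fold higher in Nrdc-/-WT than in Nrdc+/+ iMEF. Irf1 and Irf7 overlap Gm17334 and Phrf1 on the opposite strand, and Irf9 overlaps Rnf31 on the same strand. Neither the strand of the reads nor the counting of reads in shared stretches is stated, so some reads may belong to these neighbours.

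Genes of ISG15 conjugation and deconjugation were all higher in both Nrdc-/- and Nrdc-/-WT iMEF than in Nrdc+/+ iMEF, but did not share 1 order between Nrdc-/-WT and Nrdc-/- iMEF. Isg15 (chromosome 4 of mm9, 155573533 to 155574927, minus strand), a ubiquitin-like modifier, was at 12.4 and 11.7 RPKM in Nrdc-/-WT cells, 29.0 and 25.4 RPKM in Nrdc-/-, and 0.195 and 0.320 RPKM in Nrdc+/+ iMEF. Reintroduced Nrdc thus went with a lower level that still lay far above Nrdc+/+ iMEF. Its log2 fold change was 5.76 in Nrdc-/- v.s. Nrdc+/+ (standard error 0.13, adjusted p = 8.36e-09), -1.16 in Nrdc-/-WT v.s. Nrdc-/- (adjusted p = 0.000155) and 4.61 in Nrdc-/-WT v.s. Nrdc+/+ iMEF (adjusted p = 3.92e-08). Usp18, the protease that removes ISG15 and dampens interferon receptor signalling, had the same order as Isg15, with 7 and 15 reads in Nrdc-/-WT, 21 and 24 reads in Nrdc-/- and 0 reads in Nrdc+/+ iMEF. It was at least 7.52-fold higher in Nrdc-/-WT and at least 17.4-fold higher in Nrdc-/- than in Nrdc+/+ iMEF. Herc6, an ISG15 ligase of the mouse, rose stepwise, with 3.70 and 4.14 RPKM in Nrdc-/-WT cells, 2.61 and 2.18 RPKM in Nrdc-/-, and 0.645 and 0.475 RPKM in Nrdc+/+ iMEF. Its difference of 0.66 in Nrdc-/-WT v.s. Nrdc-/- iMEF (adjusted p = 0.00650) was 0.58 without the second Nrdc-/-WT library (adjusted p = 0.0561) and 0.54 without the second Nrdc-/- library (adjusted p = 0.0530), and was then not called. Trim25, a ubiquitin and ISG15 ligase that activates RIG-I, had 1151 and 1033 reads in Nrdc-/-WT and 844 and 853 reads in Nrdc-/-, against 1 and 4 reads in Nrdc+/+ iMEF. It was thus nearly silent in Nrdc+/+ iMEF alone (log2 fold change 4.98 in Nrdc-/- v.s. Nrdc+/+ iMEF, standard error 0.11, adjusted p = 6.99e-09), and the difference between Nrdc-/-WT and Nrdc-/- iMEF was 0.19 (adjusted p = 0.180).

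RNA-binding and RNA-degrading effectors included neighbours with different patterns. Ifit2, Ifit3 and Ifit1, which bind RNA and hinder translation, lie on chromosome 19 of mm9 between 34625184 and 34724499, all on the plus strand. Ifit1 was at 3.57 and 2.50 RPKM in Nrdc-/-WT cells, 0.261 and 0.228 RPKM in Nrdc-/-, and 0.259 and 0.383 RPKM in Nrdc+/+ iMEF. It was high in Nrdc-/-WT iMEF alone, by 2.71 on the log2 scale over Nrdc-/- iMEF (standard error 0.20, adjusted p = 1.47e-05), while Nrdc-/- and Nrdc+/+ iMEF overlapped. Ifit3 was at 13.3 and 11.9 RPKM in Nrdc-/-WT cells, 5.17 and 4.14 RPKM in Nrdc-/-, and 0.535 and 0.333 RPKM in Nrdc+/+ iMEF. It rose at each step, by 2.85 (standard error 0.17, adjusted p = 1.43e-06) and 1.39 (standard error 0.17, adjusted p = 0.000205). Ifit2 ran the other way, with 6.51 and 6.56 RPKM in Nrdc-/-WT cells, 7.51 and 8.44 RPKM in Nrdc-/-, and 9.66 and 8.78 RPKM in Nrdc+/+ iMEF. It was called only in Nrdc-/-WT v.s. Nrdc+/+ iMEF (log2 fold change -0.48, adjusted p = 0.00163). Ifit1 and Ifit3 both carry 2 ISRE cores in the windows printed above.

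Oligoadenylate synthetases, which make a messenger that triggers RNA breakdown, were scarce. Oasl2, a related ubiquitin-fused protein, was at 1.77 and 1.74 RPKM in Nrdc-/-WT cells, 1.07 and 0.938 RPKM in Nrdc-/-, and 0.0633 and 0.0374 RPKM in Nrdc+/+ iMEF. The lines did not overlap, and both steps were called, at 2.06 (standard error 0.15, adjusted p = 5.44e-06) and 0.68 (standard error 0.15, adjusted p = 0.00559). Oas1a had 16 reads over the Nrdc-/-WT libraries and 18 over the Nrdc-/- libraries, against 0 in Nrdc+/+ iMEF, and was at least 5.47-fold and at least 6.94-fold higher in these lines than in Nrdc+/+ iMEF. Oas2 and Oas3 had 6 and 8 reads over the Nrdc-/-WT libraries, 2 and 0 over the Nrdc-/- libraries and 0 in Nrdc+/+ iMEF. Eif2ak2, the RNA-activated kinase PKR that stops translation, was well expressed and differed less, with 12.7 and 14.5 RPKM in Nrdc-/-WT cells, 11.3 and 9.88 RPKM in Nrdc-/-, and 7.55 and 7.97 RPKM in Nrdc+/+ iMEF. Its log2 fold change of 0.43 in Nrdc-/- v.s. Nrdc+/+ iMEF was called (adjusted p = 0.00392), but not without the first Nrdc-/- library, when it was 0.34. The difference of 0.35 in Nrdc-/-WT v.s. Nrdc-/- iMEF was under 1.3-fold, and was called, at 0.45, without the first Nrdc-/-WT or the first Nrdc-/- library.

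Of the interferon-induced transmembrane genes, which block the entry of enveloped viruses, Ifitm3 and Ifitm2 were the most abundant genes of the set and Ifitm1 was far lower. Ifitm3 (chromosome 7 of mm9, 148195485 to 148196669, minus strand) was at 379 and 331 RPKM in Nrdc-/-WT cells, 152 and 176 RPKM in Nrdc-/-, and 24.6 and 20.1 RPKM in Nrdc+/+ iMEF. It rose at each step on the log2 scale, by 2.86 (standard error 0.11, adjusted p = 1.52e-07) in Nrdc-/- over Nrdc+/+ iMEF and by a further 1.11 (standard error 0.11, adjusted p = 8.50e-05) in Nrdc-/-WT over Nrdc-/- iMEF. Ifitm2, its neighbour, was at 236 and 251 RPKM in Nrdc-/-WT cells, 214 and 231 RPKM in Nrdc-/-, and 108 and 86.7 RPKM in Nrdc+/+ iMEF. Only the first step was called, at 1.20 (standard error 0.10, adjusted p = 1.33e-05), and the second was 0.13 (adjusted p = 0.316). Ifitm1 was at 7.59 and 8.33 RPKM in Nrdc-/-WT iMEF and 0.475 and 0.958 RPKM in Nrdc-/- iMEF, and no read of it fell in Nrdc+/+ libraries. It was at least 10.8-fold higher in Nrdc-/- and at least 119-fold higher in Nrdc-/-WT than in Nrdc+/+ iMEF, and rose by 3.13 on the log2 scale in Nrdc-/-WT v.s. Nrdc-/- iMEF (standard error 0.23, adjusted p = 1.35e-05). Of these 3 neighbours, Ifitm1 differed most between Nrdc-/-WT and Nrdc-/- iMEF and Ifitm2 least.

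Other effectors of this kind were mixed. Samd9l, which restricts poxviruses and cell growth, was at 13.0 and 12.6 RPKM in Nrdc-/-WT cells, 13.7 and 11.1 RPKM in Nrdc-/-, and 0.996 and 0.777 RPKM in Nrdc+/+ iMEF. It was high in Nrdc-/-WT and Nrdc-/- iMEF alike, with overlapping libraries and a difference of 0.05 (standard error 0.13), and 3.48 higher on the log2 scale in Nrdc-/- than in Nrdc+/+ iMEF (standard error 0.13, adjusted p = 1.08e-07). Bst2 (tetherin), which holds budding virions on the cell, was at 6.94 and 3.86 RPKM in Nrdc-/-WT cells, 7.26 and 9.39 RPKM in Nrdc-/-, and 7.52 and 5.20 RPKM in Nrdc+/+ iMEF. It was not called in any comparison with all 6 libraries, and its libraries of a line spread more than those of the other genes tested here. Without the first Nrdc-/-WT library, Bst2 was called lower in Nrdc-/-WT v.s. Nrdc-/- iMEF (log2 fold change -1.05, adjusted p = 0.0114) and in Nrdc-/-WT v.s. Nrdc+/+ iMEF (-0.66, adjusted p = 0.0445). Rsad2 (viperin) and Cmpk2, neighbours on chromosome 12 whose products alter nucleotides, had 5 and 13 reads over the Nrdc-/-WT libraries, 1 and 4 over the Nrdc-/- libraries, and 0 and 1 over the Nrdc+/+ libraries. The ratio for Cmpk2 in Nrdc-/-WT v.s. Nrdc+/+ iMEF was 13.3, with a 95% counting interval of 2.0 to 567.

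On the log2(RPKM + 0.25) scale, the largest changes in Nrdc-/-WT v.s. Nrdc+/+ iMEF among the 25 were those of Gbp2 and Gbp3, interferon-inducible GTPases that attack the vacuoles of intracellular pathogens. Gbp2 (chromosome 3 of mm9, 142283566 to 142300972, plus strand) was at 96.1 and 98.0 RPKM in Nrdc-/-WT cells, 19.2 and 18.2 RPKM in Nrdc-/-, and 0.254 and 0.212 RPKM in Nrdc+/+ iMEF. The log2 fold change in Nrdc-/-WT v.s. Nrdc+/+ iMEF was 7.66 (standard error 0.08, adjusted p = 4.50e-10), with 5.30 for the step to Nrdc-/- iMEF and 2.36 for the step from there to Nrdc-/-WT iMEF. Gbp3, next to it, was at 24.2 and 26.6 RPKM in Nrdc-/-WT cells, 3.19 and 3.83 RPKM in Nrdc-/-, and 0.167 and 0.135 RPKM in Nrdc+/+ iMEF. Both steps were called, at 3.23 (standard error 0.12, adjusted p = 1.20e-07) and 2.77 (standard error 0.12, adjusted p = 1.14e-06). Gbp6, on another chromosome, had the same order at a lower level, with 80 and 71 reads in Nrdc-/-WT, 18 and 17 reads in Nrdc-/-, and 1 and 2 reads in Nrdc+/+ iMEF. Its ratio to Nrdc+/+ iMEF was 51.6 (95% counting interval 17.3 to 253) in Nrdc-/-WT and 13.5 (4.26 to 68.6) in Nrdc-/- iMEF. Guanylate-binding genes form a family of similar copies, as do the Ifit, Ifitm and Oas genes, and how reads shared between copies were counted is not stated.

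Immunity-related GTPases were also lowest in Nrdc+/+ iMEF. Irgm1, which regulates the other members and autophagy, was at 17.2 and 16.4 RPKM in Nrdc-/-WT cells, 10.4 and 9.49 RPKM in Nrdc-/-, and 3.07 and 3.23 RPKM in Nrdc+/+ iMEF. Both steps were called, at 1.59 (standard error 0.09, adjusted p = 8.06e-07) and 0.74 (standard error 0.09, adjusted p = 0.000155). Igtp (Irgm3) had 173 and 170 reads in Nrdc-/-WT and 164 and 135 reads in Nrdc-/-, against 0 and 2 reads in Nrdc+/+ iMEF. The ratio in Nrdc-/- v.s. Nrdc+/+ iMEF was 173 (95% counting interval 47.5 to 1435), and the libraries of Nrdc-/-WT and Nrdc-/- iMEF overlapped (log2 fold change 0.03, standard error 0.16). Mx1 and Mx2, which encode dynamin-like antiviral proteins, had at most 2 reads in any library.

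Of the remaining genes, 5 had a row and all 5 were higher in both Nrdc-/- libraries than in both Nrdc+/+ libraries, as were 35.1% of genes with a read. Xaf1, a proapoptotic binding partner of XIAP, rose stepwise, with 14 and 13.5 RPKM in Nrdc-/-WT cells, 4.4 and 5.02 RPKM in Nrdc-/-, and 0.105 and 0.0516 RPKM in Nrdc+/+ iMEF. Its log2 fold changes were 3.92 (standard error 0.13, adjusted p = 4.76e-08) and 1.5 (standard error 0.13, adjusted p = 3.05e-05). Parp14, an ADP-ribosyltransferase, was at 1.36 and 0.921 RPKM in Nrdc-/-WT iMEF and 1.89 and 1.57 RPKM in Nrdc-/- iMEF, with 1 read in each Nrdc+/+ library. Its ratio in Nrdc-/- v.s. Nrdc+/+ iMEF was 329 (95% counting interval 90.7 to 2726). The fall of 0.52 in Nrdc-/-WT v.s. Nrdc-/- iMEF, which placed Parp14 among the genes that follow Nrdc, only just passed the threshold (adjusted p = 0.0461). That call was lost under 10 of the other settings tried at the same fold threshold, where the adjusted p was at most 0.279, among them leaving out any 1 library other than the first Nrdc-/-WT library. Without the second Nrdc-/-WT library the difference was -0.30. Isg15 and Irf9 kept both calls under every setting that used the same fold threshold.

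Ifi35, a partner of the interferon-induced protein Nmi, was at 22.8 and 24.6 RPKM in Nrdc-/-WT cells, 19.0 and 19.1 RPKM in Nrdc-/-, and 4.75 and 4.49 RPKM in Nrdc+/+ iMEF. The first step of 1.99 was called (standard error 0.07, adjusted p = 9.47e-08), and the second of 0.31 was under 1.3-fold. Rtp4, a chaperone of membrane receptors, was at 4.15 and 3.58 RPKM in Nrdc-/-WT cells, 4.59 and 4.87 RPKM in Nrdc-/-, and 0.843 and 1.26 RPKM in Nrdc+/+ iMEF. It rose by 1.95 on the log2 scale in Nrdc-/- v.s. Nrdc+/+ iMEF (standard error 0.16, adjusted p = 1.18e-05), and the difference of -0.28 in Nrdc-/-WT v.s. Nrdc-/- iMEF was not called. Ifi44 had 37 and 39 reads in Nrdc-/-WT and 37 and 37 reads in Nrdc-/-, against 4 and 5 reads in Nrdc+/+ iMEF. RefSeq gives Ifi27l1 as an older name of Ifi27, and the row of Ifi27l1 held 27.6 and 27.9 RPKM in Nrdc-/-WT cells, 32.7 and 33.6 RPKM in Nrdc-/-, and 11.3 and 12.3 RPKM in Nrdc+/+ iMEF. It was higher in Nrdc-/- than in Nrdc+/+ iMEF, by 1.47 on the log2 scale (standard error 0.07, adjusted p = 2.99e-07).

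The other genes of the pathway were read from lists of ligands, receptors, signalling factors, inhibitors and sensors. Ligands gave almost no reads. Of 18 interferon genes with a row, 3 had any read, among them Ifnb1 (interferon beta) with 1 read in 1 Nrdc-/- library, Ifne with 4 reads in 1 Nrdc+/+ library, and Ifnz with 2 to 7 reads in 5 libraries. Interferon gamma (Ifng) and the 10 numbered Ifna genes had 0 reads in all 6 libraries. Many interferon genes are similar copies, and secreted interferon was not measured here.

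Receptors other than Il28ra were expressed in all lines. Ifnar2 was at 11.0 and 9.80 RPKM in Nrdc-/-WT cells, 6.65 and 6.45 RPKM in Nrdc-/-, and 6.17 and 5.94 RPKM in Nrdc+/+ iMEF, and Ifnar1, its partner, was also highest in Nrdc-/-WT iMEF. In Nrdc-/-WT v.s. Nrdc-/- iMEF they rose by 0.65 (adjusted p = 0.000393) and 0.43 (adjusted p = 0.00149). Ifngr1, the binding chain of the interferon gamma receptor, ran against the stimulated genes, with 9.85 and 10.5 RPKM in Nrdc-/-WT cells, 9.83 and 9.51 RPKM in Nrdc-/-, and 25.7 and 26.0 RPKM in Nrdc+/+ iMEF. Its level in Nrdc-/- v.s. Nrdc+/+ iMEF fell by 1.40 on the log2 scale (adjusted p = 5.35e-07). Ifngr2 was not called in any comparison. Il10rb, which serves interferon lambda and interleukins, was lower in Nrdc-/- iMEF than in both Nrdc-expressing lines (-0.83 in Nrdc-/- v.s. Nrdc+/+ iMEF and 1.23 in Nrdc-/-WT v.s. Nrdc-/- iMEF), and Il28ra, its partner for interferon lambda, had 0 reads.

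**Figure D4:**
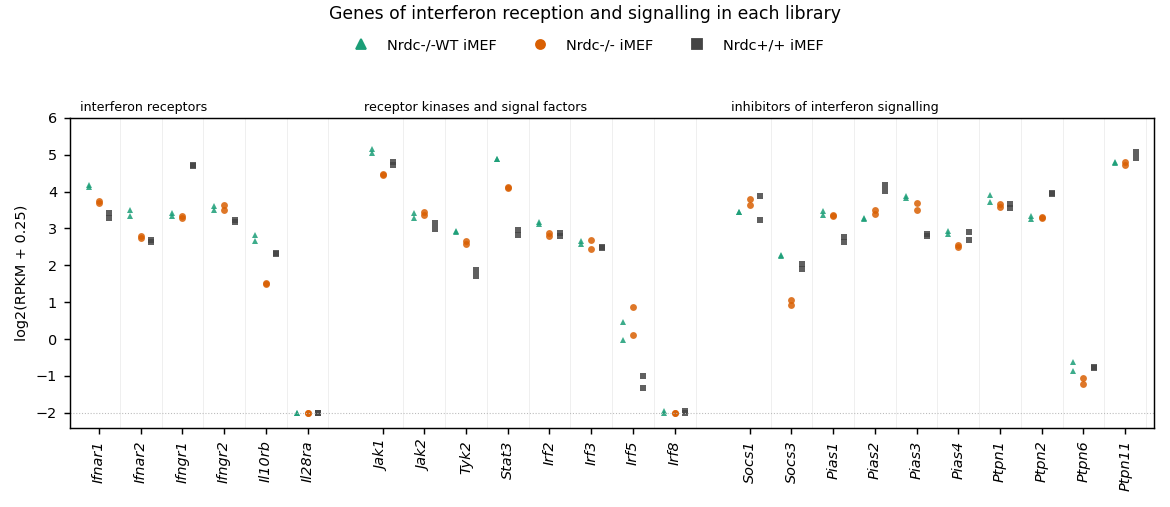
Level of receptors, kinases, signal factors and inhibitors of the interferon pathway in each library, on the log2(RPKM + 0.25) scale (vertical axis). Triangles are Nrdc-/-WT, circles Nrdc-/- and squares Nrdc+/+ iMEF, and the dotted line marks 0 RPKM. Stat3 steps up towards Nrdc-/-WT iMEF and Ifngr1 is highest in Nrdc+/+ iMEF.

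Receptor kinases and signal factors differed in their changes. Stat3, which serves interleukin 6 and related cytokines, rose at both steps, by 1.23 and 0.77. Tyk2 and Irf5 rose in Nrdc-/- v.s. Nrdc+/+ iMEF (0.83 and 1.65), and Jak1 was higher in Nrdc-/-WT than in Nrdc-/- iMEF (0.64, adjusted p = 7.21e-05). Jak2, Irf2 and Irf3 were called in neither. Of 9 inhibitors tested, Pias1 and Pias3 were higher and Socs3, Pias2 and Ptpn2 lower in Nrdc-/- than in Nrdc+/+ iMEF, where 62.1% of all genes tested were called. Socs3, a feedback inhibitor of Jak kinases, was the only one called in Nrdc-/-WT v.s. Nrdc-/- iMEF. It was at 4.48 and 4.58 RPKM in Nrdc-/-WT cells, 1.66 and 1.85 RPKM in Nrdc-/-, and 3.47 and 3.87 RPKM in Nrdc+/+ iMEF, so that Nrdc-/- iMEF were lowest.

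Of 16 genes of nucleic acid sensing tested, 7 rose and 5 fell in Nrdc-/- v.s. Nrdc+/+ iMEF (32.0% and 30.2% of all genes tested), while 3 rose and 7 fell in Nrdc-/-WT v.s. Nrdc-/- iMEF (20.5% and 22.7%). Tmem173 (STING), the adaptor of cytosolic DNA sensing, was at 7.42 and 7.96 RPKM in Nrdc-/-WT cells, 0.954 and 1.27 RPKM in Nrdc-/-, and 11.5 and 12.9 RPKM in Nrdc+/+ iMEF. It followed Nrdc, with log2 fold changes of -3.20 in Nrdc-/- v.s. Nrdc+/+ iMEF (standard error 0.13, adjusted p = 1.60e-07) and 2.55 in Nrdc-/-WT v.s. Nrdc-/- iMEF (standard error 0.13, adjusted p = 2.14e-06). Samhd1, which depletes nucleotides, changed in the same way by less (-0.71 and 0.76). Tlr3, the endosomal receptor of double-stranded RNA, had the opposite order, with 2.58 and 2.60 RPKM in Nrdc-/-WT cells, 4.86 and 4.68 RPKM in Nrdc-/-, and 0.592 and 0.441 RPKM in Nrdc+/+ iMEF, which gave 2.72 and -0.82 on the log2 scale. Zc3hav1, an antiviral zinc finger protein that binds viral RNA, was also highest in Nrdc-/- iMEF (1.05 and -0.59), and Ticam1, the adaptor of Tlr3, was higher in Nrdc-/- than in Nrdc+/+ iMEF (1.36).

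A further list of 76 interferon-stimulated genes had 47 tested members. A gene could again pass the filter through the lines where it was high, as Gbp5 and Gbp9 did without a read in Nrdc+/+ iMEF. The counts of calls below thus describe the tested genes and are no evidence about the whole list. This list, too, was chosen with earlier results of these data known. In Nrdc-/- v.s. Nrdc+/+ iMEF 34 were higher and 8 lower (32.0% and 30.2% of all genes tested). In Nrdc-/-WT v.s. Nrdc-/- iMEF 16 were higher and 13 lower (20.5% and 22.7%), and in Nrdc-/-WT v.s. Nrdc+/+ iMEF 31 were higher and 6 lower (29.9% and 30.6%). The guanylate-binding genes Gbp9 and Gbp5 stood out in Nrdc-/-WT iMEF, as Gbp2 and Gbp3 did. Gbp9 was at 8.45 and 9.12 RPKM in Nrdc-/-WT iMEF and 0.350 and 0.167 RPKM in Nrdc-/- iMEF, against none in Nrdc+/+ iMEF, and Gbp5 was at 3.51 and 3.23 RPKM in Nrdc-/-WT iMEF and 0.0574 and 0.0274 RPKM in Nrdc-/- iMEF, again against none in Nrdc+/+ iMEF. Gbp9 was at least 435-fold and Gbp5 at least 186-fold higher in Nrdc-/-WT than in Nrdc+/+ iMEF. They rose by 4.17 and 3.63 in Nrdc-/-WT v.s. Nrdc-/- iMEF, and the near-identical Tgtp1 and Tgtp2, whose reads may be shared, by 2.13 and 2.52. Casp1, the protease of the inflammasome, was high in Nrdc-/- iMEF alone, with 0.0627 and 0.0716 RPKM in Nrdc-/-WT cells, 5.17 and 4.90 RPKM in Nrdc-/-, and 0.0328 and 0 RPKM in Nrdc+/+ iMEF. Its log2 fold changes were 4.31 in Nrdc-/- v.s. Nrdc+/+ iMEF (standard error 0.16, adjusted p = 9.54e-08) and -4.06 in Nrdc-/-WT v.s. Nrdc-/- iMEF (standard error 0.16, adjusted p = 6.14e-07). Ifi27l2a (4.76 and -1.04), Trim30d (3.68 and -2.06) and Lgals3bp (3.37 and -0.73) were also highest in Nrdc-/- iMEF, while the ADP-ribosyltransferase genes Parp9 (3.89 and 0.65) and Parp10 (3.79 and 0.58) rose at both steps. Ifi30 (1.57 and -1.67) and Tor3a (1.21 and -1.29) were highest in Nrdc-/- iMEF too. Plscr1 (-1.72 and 0.76), Mnda (-1.52 and 0.86) and Ly6e (-1.29 and 1.14) were instead lowest there, as Irf9 was. The stepwise order was thus not shared by all genes of this list. Fitted values of genes with few or no reads in a line, such as Casp1, Trim30d and Gbp9, depend on the pseudocount and are no bounds.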

How the data were processed

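The 6 RNA-seq libraries, made from mRNA of Nrdc-/-WT, Nrdc-/- and Nrdc+/+ iMEF (2 each), were grouped by their labels. The reads came from Ion Proton instruments, and the authors aligned reads to mm9 with STAR and then Bowtie2, counted them with featureCounts (Subread) and calculated RPKM with edgeR. For none of these tools is a version given in the sources used here. The values were deposited by the authors as log2 RPKM with a small added constant, where RPKM had been assumed when the test was chosen. This constant was removed, and 100% of the low values tested gave whole reads within 0.05. Depth was 16385565 to 19764315 reads over listed genes. Intervals cover counting error only, and floors cover it only for the line with 0 reads. Replicates of each line differed by more than sampling noise.

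The 11598 genes whose mean level reached 0.5 RPKM were fitted on log2(RPKM + 0.25) with limma 3.58.1 (R 4.3.3, eBayes with a trend, all 6 libraries) and adjusted by Benjamini-Hochberg over all of them, with 4.98 prior and 3 residual degrees of freedom. A call required a 1.3-fold change together with an adjusted p below 0.05, and every adjusted p in the text is of this kind. The code was tested on simulated data. Genes were named in full where a line had a mean of at least 1 RPKM and a comparison was called with at least a 2-fold change, and the others are given by values or counts. From pathway lists of up to 10 genes any member could be named, and from longer lists the 6 largest called changes per comparison with Nrdc-/- iMEF. Ifi30, Tor3a, Plscr1, Mnda and Ly6e were named in addition, as examples of genes that follow Nrdc. Members and lists were chosen with earlier results of these data known. The 19 alternatives were other pseudocounts, filters, scalings, fits, thresholds, a replicate block and leaving out each library. Strand of the reads is not stated, and 66 symbols in the table are blank or dates. Sequences are from RefSeq. Some genes of the pathway lists are not reported here.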

Additional observations from a re-analysis of the deposited data

How the results depend on the processing

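Under 19 alternatives, 1366 of 1417 values kept their direction and their side of the threshold, 26 were no longer called, 21 became called and 4 changed sign. The changed signs were all of uncalled values. They were Samd9l in Nrdc-/-WT v.s. Nrdc-/- iMEF (-0.09 without the second Nrdc-/- library), Igtp in the same comparison (-0.05 without the second Nrdc-/-WT library, -0.13 without the second Nrdc-/- library) and Bst2 in Nrdc-/-WT v.s. Nrdc+/+ iMEF (0.14 without the second Nrdc-/-WT library, and -0.66, which was called, without the first). Requiring a 2-fold change left 0 genes lower in Nrdc-/- v.s. Nrdc+/+ iMEF, against 1280 of all 11598 genes tested. It left 7 higher and 1 lower in Nrdc-/-WT v.s. Nrdc-/- iMEF (767 and 631 of all genes tested). In Nrdc-/-WT v.s. Nrdc+/+ iMEF 0 were lower (1224 of all genes tested). At this threshold 1 gene followed Nrdc and 6 were of the stepwise pattern. Shares of these patterns over all genes were counted under the main setting only. With a pseudocount of 0.05, trimmed mean scaling, voom on whole reads or no fold threshold, 2 genes were lower in Nrdc-/- v.s. Nrdc+/+ iMEF. Of all 11598 genes tested, 3540, 3574, 3520 and 4252 were lower under these settings. A fit of only the 4 libraries compared gave 5 lower in Nrdc-/-WT v.s. Nrdc-/- iMEF, against 2692 of 11476 genes tested there. The cause was not tested beyond the construction of each alternative.

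Leaving out a library left its line with a single one, so ranges of log2 fold changes are given in place of counts. They are given for the 3 genes that followed Nrdc with all libraries. In Nrdc-/- v.s. Nrdc+/+ iMEF the range was 5.59 to 5.94 for Isg15, 2.83 to 3.07 for Parp14 and -0.83 to -0.43 for Irf9. In Nrdc-/-WT v.s. Nrdc-/- iMEF it was -1.25 to -1.06, -0.75 to -0.30 and 0.69 to 1.09. With the replicate number as a block, 20 genes were higher and 1 lower in Nrdc-/- v.s. Nrdc+/+ iMEF (3716 and 3502 of all 11598 genes tested). In Nrdc-/-WT v.s. Nrdc-/- iMEF 12 were higher and 4 lower (2372 and 2630). In Nrdc-/-WT v.s. Nrdc+/+ iMEF 21 were higher and 2 lower (3476 and 3546). With this block 3 genes followed Nrdc and 10 were of the stepwise pattern. Bst2 was then called lower in Nrdc-/-WT v.s. Nrdc-/- iMEF (-0.65, adjusted p = 0.0459). Deviations of libraries with the same number correlated at 0.01, -0.10 and -0.03 between lines, over all genes tested. Whether these libraries also shared a preparation or a run is not stated. A single correlation over all genes cannot decide it, since a shared step could touch only some genes.

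Depth limits the genes below the filter. Of the 13 genes not tested, 6 were under 0.2 RPKM in every library, and Mx1 and Mx2 had too few reads for a ratio. With no filter, 25 genes were called higher and 1 lower in Nrdc-/- v.s. Nrdc+/+ iMEF, 14 and 4 in Nrdc-/-WT v.s. Nrdc-/- iMEF, and 27 and 2 in Nrdc-/-WT v.s. Nrdc+/+ iMEF, against 4110 and 3987, 2596 and 2827, and 3840 and 3930 of all 17771 genes. With 2 libraries a line, the spread rests on 3 residual degrees of freedom.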
